A study of Mus musculus with 5 samples.

Results

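Aminoacyl-tRNA synthetases are the enzymes that join each amino acid to its tRNA, and their mRNAs were followed here after knockdown of UPF1. The members were the protein-coding genes in the deposited table of read counts whose symbol was a capital letter, or Ep, followed by ars, with or without a 1 or 2 after it, together with Farsa and Farsb. The 35 members described, of 55573 genes, comprise 19 for cytosolic enzymes and 16 for mitochondrial enzymes, and the classes are kept apart. Gars and Kars encode both the cytosolic and the mitochondrial form of their enzyme and were kept with the cytosolic class. The pattern did not take in Eprs, which encodes the cytosolic glutamyl-prolyl enzyme, or Tarsl2, a relative of Tars, and these were followed as partners of the members.

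A synthetase activates its amino acid with ATP and transfers it to the end of the matching tRNA, and the charged tRNA then enters the ribosome. Cytosolic and mitochondrial translation use separate tRNAs, so most amino acids have an enzyme for each compartment, and all of them are encoded in the nucleus. Several cytosolic enzymes are held together with the scaffold proteins AIMP1, AIMP2 and EEF1E1 in the multisynthetase complex. Many of the cytosolic genes are known targets of ATF4, the transcription factor of the amino acid response.

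Poly(A) RNA of the mouse neuroblastoma line Neuro-2A (N2A) was sequenced to find the transcripts whose level depends on the nonsense-mediated mRNA decay (NMD) helicase UPF1. Cells received 60 pmol of a control siRNA (siCtl, Silencer Negative Control #1, 2 libraries, replicates 1 and 3) or of a single siRNA against Upf1 (siUpf1, 3 libraries, replicates 1, 2 and 3), and no other treatment separated the groups. The libraries held between 20402205 and 27717594 reads assigned to genes. The labels do not say whether the libraries came from separate cultures, so p-values measure the spread between these libraries, which may be technical.

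Upf1 itself, the target of the siRNA, had 5217 and 5243 normalised counts in the siCtl libraries and 2403, 2496 and 2449 in the siUpf1 libraries, a log2 fold change of -1.09 (SE 0.051, adjusted p = 7.09e-101). Of 12 genes that mark neuroblastoma cells, 10 averaged 50 normalised counts or more. The sum of these 12 genes was between 41560 and 41920 in the siCtl libraries and between 45770 and 49360 in the siUpf1 libraries. Among markers of other cells, Aqp4 and Slc1a3 of astrocytes, Mog of oligodendrocytes, and Aif1 and Cx3cr1 of microglia were under 1. However, 2 of the 3 oligodendrocyte markers and 2 of the 3 fibroblast markers averaged 50 or more, while 0 of the 3 astrocyte and 0 of the 3 microglial markers did. The sum of the 3 oligodendrocyte markers was 462 to 501 in siCtl and 518 to 549 in siUpf1, and that of the 3 fibroblast markers was 267 to 281 in siCtl and 185 to 219 in siUpf1. The part of these differences in the results was not tested.

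Most mRNAs of cytosolic synthetases were lower after Upf1 knockdown. Of the 19 cytosolic members, all of which were tested, 14 were called lower, 2 were called higher and 3 were not called, at an adjusted p under 0.05 in DESeq2's test. Over all 15191 genes tested, 22.9% were called lower and 22.0% were called higher. The median log2 fold change of siUpf1 over siCtl was -0.19 over the cytosolic members and -0.0024 over all genes tested. In 14 cytosolic members every siUpf1 library lay below every siCtl library, in 2 it lay above, and in 3 the groups overlapped, where such gaps downward were found in 35.2% of all genes tested and gaps upward in 34.3%. The normalised counts of the class, summed, were 200543 and 203306 in the siCtl libraries and 162936, 167915 and 162733 in the siUpf1 libraries, which was 81.5% of the siCtl mean. In bulk RNA a lower level in each cell and a smaller number of expressing cells cannot be told apart.

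**Figure D1:**
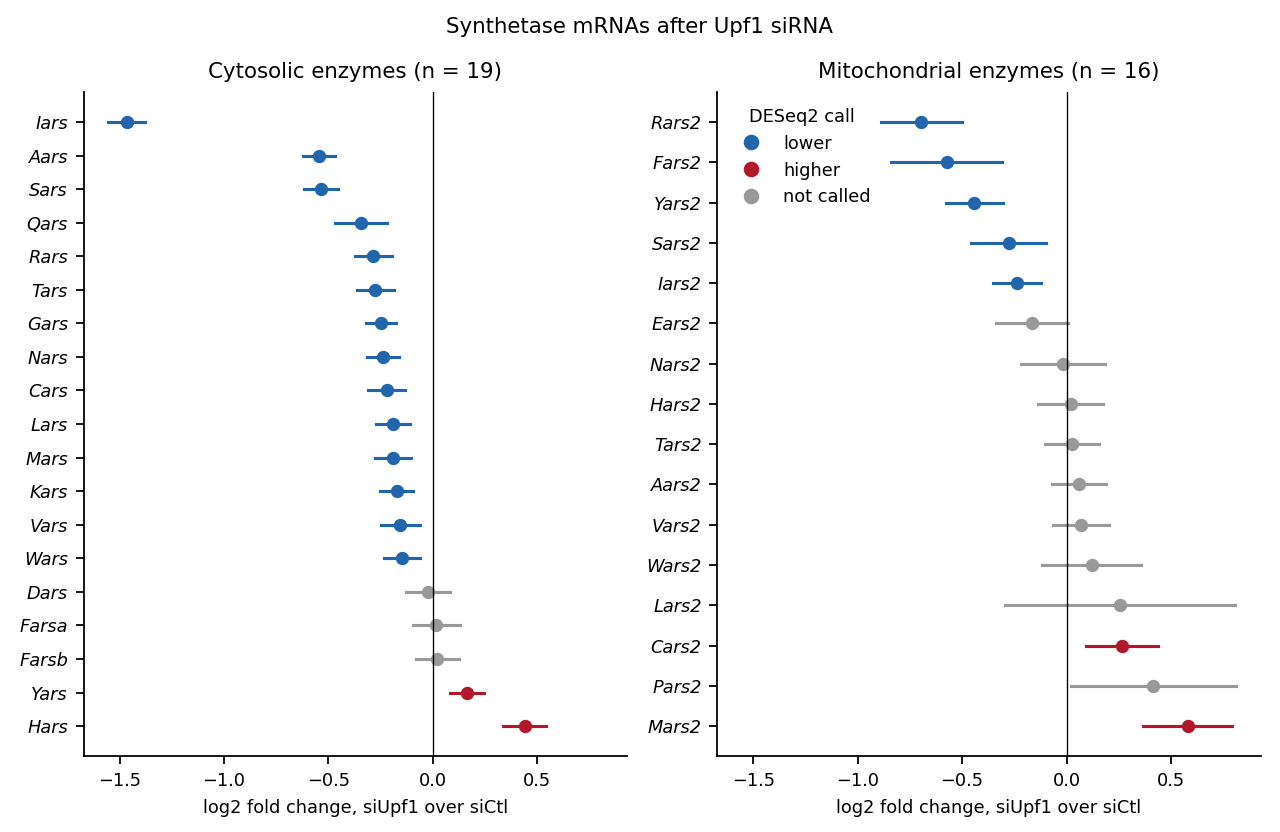
Log2 fold change of siUpf1 over siCtl for each cytosolic (left, 19) and mitochondrial (right, 16) synthetase gene, with its 95% interval as a bar and the DESeq2 call as color. The cytosolic genes lie mostly left of 0, with Iars at -1.47 farthest out, and the mitochondrial genes lie on both sides, from -0.69 for Rars2 to 0.58 for Mars2.

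Iars (chr13:49682100-49734267, GRCm38), which encodes the isoleucyl enzyme of the multisynthetase complex, fell more than any other member in the fit with all 5 libraries. Its normalised counts were 11119.7 and 11046 in the siCtl libraries and 4141, 3903 and 3986 in the siUpf1 libraries. All siUpf1 libraries were far below both siCtl libraries, and the spread within each group was small beside the gap. Relative to siCtl the mean was 36.2%, with a log2 fold change of -1.47 (SE 0.045, adjusted p = 1.84e-229). Over the alternative settings this fold change stayed between -1.49 and -1.43.

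Within the cytosolic class, Aars and Sars came next. Aars, whose enzyme charges alanine, had 32649.6 and 32897 normalised counts in siCtl and 21890.0, 23216 and 22257 in siUpf1. Sars, the seryl gene, had 16867 and 17413 in siCtl and 11609, 12219 and 11637 in siUpf1. Neither gene had overlapping groups, and both stood near 69% of siCtl (68.5% for Aars and 69% for Sars). Their log2 fold changes were -0.55 (SE 0.039, adjusted p = 2.52e-43) and -0.54 (SE 0.041, adjusted p = 7.78e-37). Exons of Aars overlap those of Exosc6 on the same strand, so reads in the shared part cannot be told apart. The counting settings that the study lists include none for assigning such reads to both genes.

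A middle group had smaller losses. Qars, the glutaminyl gene, had 2394 and 2391 normalised counts in siCtl against 1834, 1993 and 1831 in siUpf1, a log2 fold change of -0.35 (SE 0.063, adjusted p = 2.97e-07). Rars, whose enzyme charges arginine, gave 6496 and 6508 in siCtl against 5415, 5391 and 5202 in siUpf1, with -0.29 (SE 0.045, adjusted p = 1.97e-09) on the log2 scale. For Tars, the threonyl gene, the siCtl libraries gave 6483 and 6561 and the siUpf1 libraries 5514, 5374 and 5272, with a log2 fold change of -0.28 (SE 0.045, adjusted p = 8.03e-09). These 3 genes each fell to between 78.8% and 82.6% of siCtl with no overlap between groups.

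Gars, the glycyl gene of both compartments, had 29468 and 29481 normalised counts in siCtl and 24544, 25497 and 24526 in siUpf1, and changed by -0.25 (SE 0.037, adjusted p = 1.98e-10) in log2 units. Nars, which serves asparagine, had 16991 and 17276 in siCtl and 14755, 14633 and 14166 in siUpf1, a log2 fold change of -0.24 (SE 0.039, adjusted p = 5.29e-09). Cars, the cysteinyl gene, had 5969.7 and 6187 in siCtl and 5177, 5222 and 5253 in siUpf1, with a log2 fold change of -0.22 (SE 0.045, adjusted p = 5.48e-06). The siCtl libraries were again all above the siUpf1 libraries. Kars, the lysyl gene of both compartments, had 11275 and 11638 in siCtl and 10164, 10256 and 10072 in siUpf1, a log2 fold change of -0.17 (SE 0.04, adjusted p = 6.12e-05), and its groups did not overlap.

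The remaining lower members, Lars, Mars, Vars and Wars, which serve leucine, methionine, valine and tryptophan, had log2 fold changes between -0.19 and -0.15. Wars had 7941 and 7931 normalised counts in siCtl and 7088, 7412 and 7021 in siUpf1, with -0.15 (SE 0.044, adjusted p = 0.00273) on the log2 scale. Its groups were close but did not overlap, and its call was lost without siCtl replicate 1 (adjusted p = 0.059) and without siCtl replicate 3 (adjusted p = 0.0579). Vars changed by -0.16 (SE 0.048, adjusted p = 0.00347) and lost its call without siCtl replicate 3 (adjusted p = 0.125). Over all alternatives DESeq2's and edgeR's adjusted p ran from 0.0012 to 0.118 for Wars and from 0.000424 to 0.125 for Vars.

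Hars and Yars rose. Hars, the histidyl gene, had 2669 and 2665 normalised counts in the siCtl libraries and 3557, 3728 and 3568 in the siUpf1 libraries. Every siUpf1 library was higher, at 136% of the siCtl mean, and the log2 fold change was 0.44 (SE 0.053, adjusted p = 2.57e-15). Yars, the tyrosyl gene, had 8590.3 and 8777 normalised counts in siCtl and 9508, 10009 and 9681 in siUpf1, a smaller gain of 0.16 (SE 0.043, adjusted p = 0.000417) on the log2 scale. The groups of Yars did not overlap, but without siCtl replicate 1 its adjusted p was 0.055, within a range of 1.1e-05 to 0.187 over the alternatives, which left Hars as the only higher cytosolic member in that setting. Exons of Hars overlap those of Hars2 and exons of Yars those of C77080, in each case on the opposite strand, and reads were counted by strand.

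Dars, the aspartyl gene, and Farsa and Farsb, which encode the subunits of the cytosolic phenylalanyl enzyme, were not called. Dars had 3769 and 3592 normalised counts in siCtl and 3756, 3542 and 3561 in siUpf1, with a 95% interval of -0.13 to 0.082 for its log2 fold change. Farsa had 2645 and 2845 in siCtl and 2718, 2821 and 2802 in siUpf1. Farsb had 3276 and 3255 in siCtl and 3236, 3371 and 3342 in siUpf1. In all 3 genes the groups overlapped. The 95% intervals were -0.10 to 0.13 for Farsa and -0.08 to 0.12 for Farsb.

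**Figure D2:**
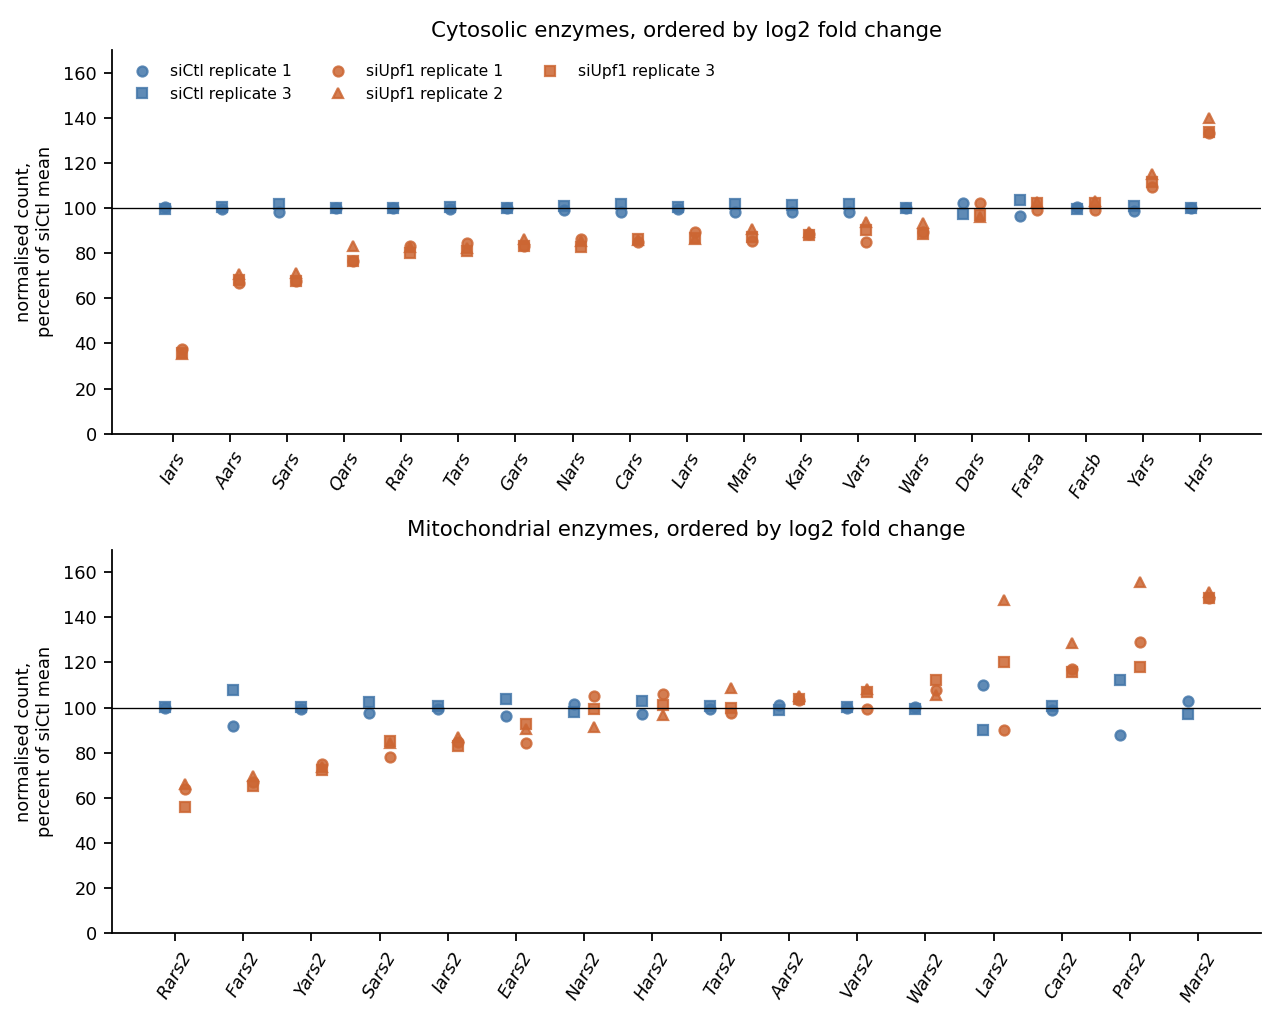
Normalised count of each synthetase gene in each of the 5 libraries as a percent of that gene's siCtl mean, with cytosolic genes above and mitochondrial genes below, ordered by log2 fold change. Iars stands near 36% in the 3 siUpf1 libraries and Hars near 136%, and the libraries of Lars2 and Pars2 are the most scattered.

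The cytosolic members were also read by what is known of their proteins. Synthetases fall into 2 structural classes that differ in the fold of the catalytic domain. Of 9 class I members 8 were lower and 1, Yars, was higher, with a median log2 fold change of -0.19. Of 10 class II members 6 were lower, 1, Hars, was higher and 3 were not called, with a median of -0.21. Among the 7 members held in the multisynthetase complex (Dars, Iars, Kars, Lars, Mars, Qars and Rars), 6 were lower and 1, Dars, was not called, and among the 12 outside it 8 were lower, 2 higher and 2 not called, with medians of -0.19 and -0.19. In the whole cytosolic class 14 of 19 were lower and 2 higher, and among all genes tested 22.9% were lower and 22.0% higher. Neither division was tested for a difference.

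Of 12 cytosolic members generally known as ATF4 targets, 11 were lower and 1, Yars, was higher, with a median log2 fold change of -0.23. The 7 other cytosolic members had 3 lower, 1 higher and 3 not called, with a median of -0.023, and over all genes tested 22.9% were lower and 22.0% higher. Membership of this list was drawn from general knowledge of the response and with earlier results of these data known, and the difference between the subsets was not tested.

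Promoter windows were read from RefSeq (build GRCm38.p6, 250 bases before to 50 bases after each annotated start) for 26 of the 35 members described, 12 cytosolic and 14 mitochondrial. They were searched on both strands for TGATGNAA, the core of the C/EBP-ATF response element, to which ATF4 dimers are known to bind. The 8 letters occurred in the windows of 5 of 12 cytosolic members (Aars, Gars, Iars, Tars and Yars), in none of 14 mitochondrial members, and in 3.97% of the 32851 windows in the table. A member counted if any of its windows held the letters, whereas the 3.97% is a share of single windows and not of genes. The windows of these 5 genes are shown, 5′ to 3′ on the strand of the gene, with the matches in capitals, because they include Iars, the member that fell most, and Yars, 1 of the 2 cytosolic members that rose.
Iars (chr13:49681880-49682179, plus strand): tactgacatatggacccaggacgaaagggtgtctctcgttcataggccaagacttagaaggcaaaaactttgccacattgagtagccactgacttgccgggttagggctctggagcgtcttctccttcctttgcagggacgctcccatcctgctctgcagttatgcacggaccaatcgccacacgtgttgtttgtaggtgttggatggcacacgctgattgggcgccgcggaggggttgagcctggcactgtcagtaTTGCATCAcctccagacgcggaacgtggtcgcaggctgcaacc
Aars (chr8:111033592-111033891, plus strand): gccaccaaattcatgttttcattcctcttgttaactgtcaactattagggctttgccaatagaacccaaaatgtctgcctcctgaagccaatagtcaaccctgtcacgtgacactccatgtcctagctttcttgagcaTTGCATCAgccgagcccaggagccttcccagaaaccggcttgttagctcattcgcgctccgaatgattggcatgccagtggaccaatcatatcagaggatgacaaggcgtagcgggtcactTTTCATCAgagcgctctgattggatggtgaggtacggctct
Tars (chr15:11399609-11399908, minus strand): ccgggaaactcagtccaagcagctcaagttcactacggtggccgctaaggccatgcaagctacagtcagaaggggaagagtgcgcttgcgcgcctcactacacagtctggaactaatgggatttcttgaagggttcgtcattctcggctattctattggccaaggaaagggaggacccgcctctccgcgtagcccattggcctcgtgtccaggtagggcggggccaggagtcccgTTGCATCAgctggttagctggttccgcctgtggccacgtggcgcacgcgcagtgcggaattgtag
Gars (chr6:55037751-55038050, plus strand): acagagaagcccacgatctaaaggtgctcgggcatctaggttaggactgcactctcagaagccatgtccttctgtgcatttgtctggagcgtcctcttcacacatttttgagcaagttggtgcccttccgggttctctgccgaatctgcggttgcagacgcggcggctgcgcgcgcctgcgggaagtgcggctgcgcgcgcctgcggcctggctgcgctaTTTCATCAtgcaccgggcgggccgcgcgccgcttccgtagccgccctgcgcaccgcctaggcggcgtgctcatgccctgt
Yars (chr4:129189653-129189952, plus strand): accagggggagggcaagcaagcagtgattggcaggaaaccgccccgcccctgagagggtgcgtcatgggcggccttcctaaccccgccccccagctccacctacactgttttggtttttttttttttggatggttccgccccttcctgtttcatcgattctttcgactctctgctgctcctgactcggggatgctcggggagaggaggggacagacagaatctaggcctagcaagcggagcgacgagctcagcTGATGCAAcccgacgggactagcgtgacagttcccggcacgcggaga

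Counted from the RefSeq start, which can differ from the start the cells use, the match began at base 8 of the transcript in Iars and at base 4 in Yars. The matches began 15 bases before the start in Tars, 30 before it in Gars, and 112 before and 10 after it in Aars, which had 2. Iars, Tars and 1 of the Aars matches read TTGCATCA, Gars and the other Aars match read TTTCATCA, and Yars carried the letters in the other orientation as TGATGCAA. Of the 5 genes with a match 4 were lower and Yars was higher (median -0.28). Of the 7 cytosolic genes with a window and no match 4 were lower and 3 not called (median -0.17). Among all 19 cytosolic members 14 were lower and 2 higher, and among all genes tested 22.9% were lower and 22.0% higher. The difference by match was not tested. A match describes the letters only, and neither binding nor its part in the levels was measured.

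Of 16 mitochondrial members, all tested, 5 were called lower and 2 were called higher, beside 22.9% and 22.0% of all genes tested. The other 9 were not called, as were 8369 of the 15191 genes tested. The median log2 fold change was 0.024, and 0.020 without Lars2. Every siUpf1 library lay below the siCtl libraries in 6 members and above them in 5, and the groups overlapped in 5, beside gaps downward in 35.2% and upward in 34.3% of all genes tested. The counts depended on single libraries. Without siCtl replicate 3, 3 members were lower and 1 was higher, and without siCtl replicate 1 or siUpf1 replicate 2 only 1, Mars2, was higher. Whether the cytosolic and mitochondrial classes differ was not tested.

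Rars2 (chr4:34614957-34660167), the mitochondrial arginyl gene, fell most. It had 901 and 904 normalised counts in the siCtl libraries and 576, 597 and 504 in the siUpf1 libraries, 61.9% of siCtl, with a log2 fold change of -0.69 (SE 0.10, adjusted p = 2.98e-11). Yars2, the tyrosyl gene, had 1615 and 1629 in siCtl and 1217, 1196 and 1170.4 in siUpf1, a log2 fold change of -0.44 (SE 0.07, adjusted p = 2.1e-09). Both genes had well separated groups, and neither lost its call under any of the 13 alternatives.

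Fars2, the phenylalanyl gene, had 378 and 444 normalised counts in siCtl and 276, 287 and 268 in siUpf1, a log2 fold change of -0.57 (SE 0.14, adjusted p = 9.18e-05). Its siCtl libraries differed from each other more than its siUpf1 libraries did, and without siCtl replicate 3 the adjusted p was 0.0571, within a range of 3.12e-05 to 0.0571 over the alternatives. Iars2 (-0.24, SE 0.058), the isoleucyl gene, was lower as well. Sars2, the seryl gene, had 819 and 859 in siCtl and 656, 705 and 716 in siUpf1, with no overlap and a log2 fold change of -0.28 (SE 0.092, adjusted p = 0.00732). The call of Sars2 was lost without siCtl replicate 3 (adjusted p = 0.154) and without siUpf1 replicate 1 (adjusted p = 0.0627), within a range of 0.00168 to 0.154.

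Mars2 (chr1:55237177-55248470), which charges methionine in mitochondria, rose most in this class. Its normalised counts were 409 and 386 in siCtl and 591, 601 and 591 in siUpf1, 150% of the siCtl mean, with a log2 fold change of 0.58 (SE 0.11, adjusted p = 4.94e-07). The siUpf1 libraries were close together and far above the siCtl libraries. Cars2, the cysteinyl gene, had 774 and 788 in siCtl and 914, 1003 and 904 in siUpf1, a log2 fold change of 0.27 (SE 0.088, adjusted p = 0.00734). All its siUpf1 libraries were higher, yet single libraries decided the call. Its adjusted p was 0.11 and 0.0772 without siCtl replicate 1 or 3 and 0.0693 without siUpf1 replicate 2, within a range of 0.00162 to 0.27.

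Pars2, the prolyl gene and the least abundant member by count, had 117 and 150.0 normalised counts in siCtl and 173, 208 and 158 in siUpf1. Its groups did not overlap, but its log2 fold change of 0.42 had an SE of 0.20 and was not called (adjusted p = 0.0816) in DESeq2. Beside Lars2, the other members that were not called (Aars2, Ears2, Hars2, Nars2, Tars2, Vars2 and Wars2) had log2 fold changes between -0.17 for Ears2 and 0.12 for Wars2. edgeR's quasi-likelihood test, in which 27.1% of genes were called lower and 27.5% higher, also called Ears2 lower (adjusted p = 0.0376, range 0.0376 to 0.521) and Pars2 higher (adjusted p = 0.0254, range 0.0254 to 0.517).

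Lars2 (chr9:123366927-123462666), the mitochondrial leucyl gene, stood apart. Its normalised counts were 164823 and 135086 in the siCtl libraries and 135211, 221536 and 180341 in the siUpf1 libraries, while Iars2, the next highest mitochondrial member, had 2563 and 2598 in siCtl and 2191, 2243 and 2138 in siUpf1. The highest and the second lowest value of Lars2 were both in the siUpf1 group, the groups overlapped, and the log2 fold change of 0.26 had a 95% interval of -0.29 to 0.81 (adjusted p = 0.497). Lars2 took 0.538% to 0.865% of a library. Gm26917, a non-coding gene at the ribosomal RNA locus on chromosome 17, took 0.603% to 0.918%, and there were between 0.879 and 0.968 reads of Lars2 for each read of Gm26917 in the 5 libraries. Gm42418, at the same locus, took 4.27% to 7.32%. All 3 genes had their highest share in siUpf1 replicate 2, and the part of reads from that locus in the Lars2 counts was not tested.

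Sums over the mitochondrial class turned on this gene. With Lars2, the summed normalised counts were 180497 and 151051 in the siCtl libraries and 149931, 236763 and 195101 in the siUpf1 libraries, 117% of siCtl with overlapping groups. Without it they were 15673 and 15966 in siCtl and 14719.9, 15226.5 and 14760.0 in siUpf1, 94.2% of siCtl with groups that did not overlap.

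Levels of different genes were compared per length, as reads per kilobase of merged exons, scaled to the library's assigned reads (FPKM), with the SD over 2 siCtl or 3 siUpf1 libraries. Across the cytosolic members the median siCtl level was 79.8 FPKM, from 14.4 ± 0.102 for Qars to 374 ± 3.16 for Gars. Nars (156 ± 3.1), Aars (140 ± 1.88), Sars (132 ± 4.05) and Mars (126 ± 3.83) followed Gars, and the siCtl libraries of Sars (129 and 135 FPKM) and Mars (123 and 129 FPKM) nearly met. Across the 15 mitochondrial members other than Lars2 the median was 10.03 FPKM, from 1.39 ± 0.0456 for Mars2 to 20.4 ± 0.29 for Yars2, and Lars2 was listed at 536 ± 70.8. In siUpf1, the mean of Iars moved from 83.3 ± 0.283 to 30.6 ± 1.69 FPKM. That was below the means of Cars (31.9 ± 0.772) and Dars (33.4 ± 1.87), both of which Iars exceeded in siCtl. The siUpf1 libraries of Iars (28.9 to 32.3 FPKM) overlapped those of Cars (31.0 to 32.3) and Dars (31.7 to 35.4).

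**Figure D3:**
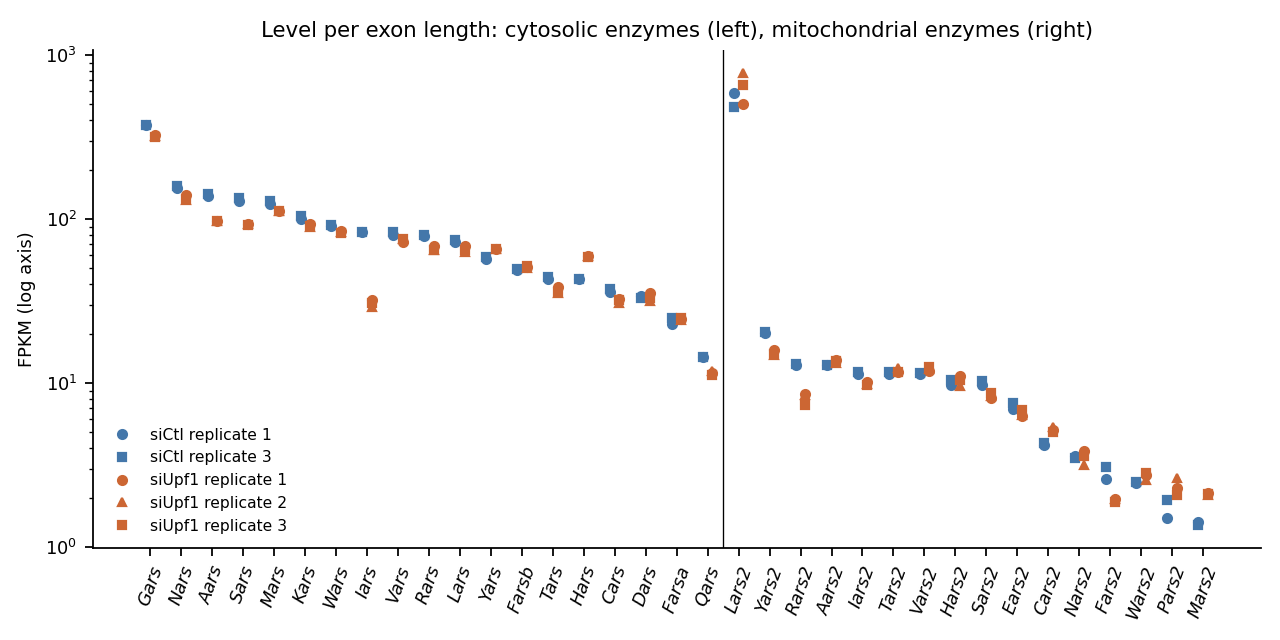
Level of each synthetase gene in each library in FPKM on a log axis, with cytosolic genes left of the line and mitochondrial genes right of it, each ordered by its siCtl mean. Cytosolic genes lie mostly above mitochondrial genes, Gars leads the cytosolic class at 374 ± 3.16 FPKM in siCtl, and Lars2 lies far above the other mitochondrial genes.

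Setting the enzymes for the same amino acid side by side gave 15 pairs, with Farsa and Farsb each paired with Fars2. In 3 pairs the members were called in opposite directions, in 3 they were called in the same direction (all lower: Iars with Iars2, Rars with Rars2, and Sars with Sars2), and in 9 only 1 of the 2 was called. In no pair were both genes uncalled. These counts follow in part from the cytosolic class, where only 3 of 19 members were not called. Of all genes tested, 22.9% were called lower and 22.0% higher. Fars2 counts in 2 of the pairs, so the pairs are not independent.

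The pairs called in opposite directions were those for methionine, cysteine and tyrosine. Mars had 10721 and 11065 normalised counts in siCtl and 9289, 9877 and 9490.0 in siUpf1, a log2 fold change of -0.19 (SE 0.043, adjusted p = 4.95e-05), against the rise of Mars2 given above (0.58). Per length, Mars was 90.5 times as abundant as Mars2 in siCtl, and by normalised count 27.45 times. The value per length rests on annotated exons of 11294 bases for Mars2, of which 9470 are 3′ untranslated, and 3423 for Mars. The length of the Mars2 transcript in these cells was not measured. Cars fell by 0.22 on the log2 scale where Cars2 changed by 0.27, and Yars rose by 0.16 where Yars2 fell by 0.44. The calls of Cars2 and Yars were among those that a single library decided.

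**Figure D4:**
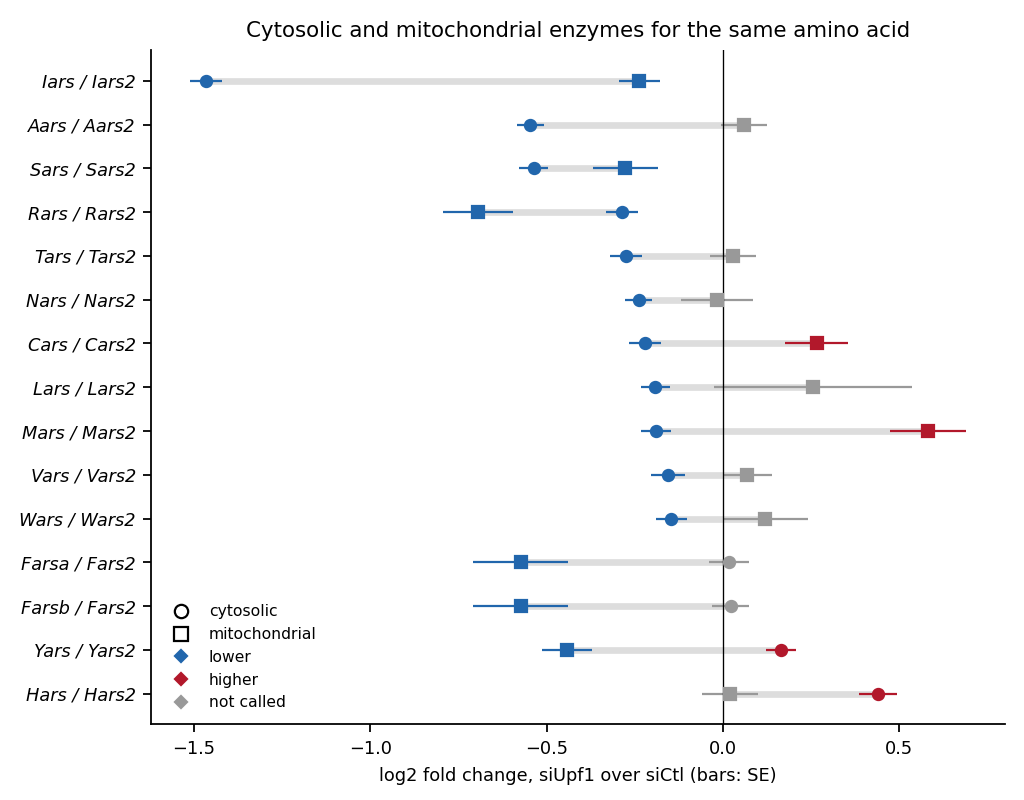
Log2 fold change of siUpf1 over siCtl for the cytosolic (circle) and mitochondrial (square) enzyme of the same amino acid, 15 pairs ordered by the cytosolic gene, with bars of 1 SE and the DESeq2 call as color. Mars, Cars and Yars lie on the other side of 0 from their mitochondrial partners, and Iars lies far left of Iars2.

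Because NMD acts on transcripts with early stop codons, the annotated isoforms were counted. In GENCODE M21, 20 of 35 members (57.1%) have at least 1 transcript annotated as an NMD substrate, beside 28.4% of 12736 tested protein-coding genes. The largest numbers of such transcripts were 10 for Qars and 6 for Nars, both of which fell. Among the 11 cytosolic members with such a transcript 7 were lower and 2, Hars and Yars, were higher, and among the 8 without 7 were lower and 1, Dars, was not called, where 22.9% of all genes tested were lower and 22.0% higher. Counts per gene do not separate isoforms. The 3′ untranslated regions (UTRs) of the representative transcripts had a median of 354 bases, beside 984 bases over the same protein-coding genes, and that of Mars2 was the longest at 9470 bases.

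The members were also searched for sites of the Upf1 siRNA, since a siRNA can act on mRNAs whose 3′ UTR pairs with its seed (bases 2 to 8). Of 35 members, 1 had a 3′ UTR site for the antisense strand (GATAATT) and 2 had sites for the sense strand (AACCTTG), beside 7.63% and 9.76% of tested protein-coding genes. These sites are shown with 9 bases on each side and the site in capitals, because they are the only ones in the 3′ UTRs of the members.
Sars, first site (chr3:108426568-108426574, minus strand): ccagacttgAACCTTGtctctgctg
Sars, second site (chr3:108425689-108425695, minus strand): gagttggttAACCTTGctcttggta
Yars (chr4:129219514-129219520, plus strand): cattcctcaAACCTTGttaccacgt
Nars2 (chr7:97064623-97064629, plus strand): tataatcagGATAATTgctaaggta

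Of the genes with a site, Sars was lower, Yars was higher and Nars2 was not called (-0.018, SE 0.10). The other 32 members had no site in the 3′ UTR used. Outside the 3′ UTR, the representative mRNAs of Iars, Aars and Tars2 each held 1 sense-strand site and that of Hars2 held 1 antisense-strand site. Coordinates are those of GRCm38.

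Genes that act with the synthetases were read from 6 lists of 40 genes, all of them found and tested. Over these lists 14 genes were lower and 10 higher, where 22.9% and 22.0% of all genes tested were, with a median log2 fold change of -0.036. Among the synthetases outside the naming pattern, Eprs, the largest polypeptide of the multisynthetase complex, had 26958 and 28039.8 normalised counts in siCtl and 28125, 26823 and 26656 in siUpf1. The groups overlapped and Eprs was not called (-0.016, 95% interval -0.094 to 0.063). Tarsl2 had 843 and 795 in siCtl and 582, 585 and 604 in siUpf1, with no overlap and a log2 fold change of -0.47 (SE 0.094, adjusted p = 2.98e-06).

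Of the 3 scaffold genes of the complex, Aimp1 and Aimp2 were lower and Eef1e1 was not called. Over all genes tested, 22.9% were lower and 22.0% higher. Aimp1 had 2949 and 3222 normalised counts in siCtl and 2744, 2754 and 2505 in siUpf1, a log2 fold change of -0.21 (SE 0.063, adjusted p = 0.00264). Aimp2 had 2414 and 2542 in siCtl and 2098, 2269 and 2311 in siUpf1, a log2 fold change of -0.16 (SE 0.064, adjusted p = 0.0338). The groups did not overlap in either gene, but Aimp1 lost its call without siCtl replicate 3 (adjusted p = 0.185, range 0.00191 to 0.185). Aimp2 lost its call in 8 of the 13 alternatives (adjusted p from 0.0233 to 0.325), among them those without siCtl replicate 1 (0.0779), siCtl replicate 3 (0.325), siUpf1 replicate 1 (0.179) and siUpf1 replicate 2 (0.0502). Eef1e1 had a log2 fold change of 0.11 with a 95% interval of -0.053 to 0.28.

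Mitochondria make some charged tRNAs indirectly, through the amidotransferase of Qrsl1, Gatb and Gatc, and formylate the initiator through Mtfmt. None of these 4 genes was called, and 8369 of all 15191 genes tested were not called either. The 4 genes had log2 fold changes from -0.11 for Gatb to 0.074 for Gatc. DESeq2 gave 0 of them an unadjusted p under 0.05, and edgeR called 0.

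Of 4 genes for the removal of wrongly charged amino acids, Dtd1 and Dtd2, which encode D-aminoacyl-tRNA deacylases, were higher. Aarsd1 (0.32, SE 0.34) and Prorsd1 (-0.34, SE 0.19) were not called. Over all genes tested, 22.9% were lower and 22.0% higher. Dtd1 had 519 and 536 normalised counts in siCtl and 644, 720.4 and 674 in siUpf1, a log2 fold change of 0.36 (SE 0.10, adjusted p = 0.00124). Dtd2 had 196 and 197 in siCtl and 288, 306 and 295 in siUpf1, a log2 fold change of 0.59 (SE 0.15, adjusted p = 0.000301). Both had all siUpf1 libraries above the siCtl libraries. Without siCtl replicate 1 the adjusted p of Dtd1 was 0.0536, within a range of 0.000318 to 0.139.

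Among 11 genes of tRNA splicing, end processing and export, 3 were lower, 4 were higher and 4 were not called, beside 22.9% lower and 22.0% higher over all genes. Xpot, which encodes the nuclear export receptor of tRNA, had 17676 and 17119 normalised counts in siCtl and 10852, 11068 and 10947 in siUpf1, a log2 fold change of -0.67 (SE 0.039, adjusted p = 2.16e-64). Elac1, an enzyme that trims tRNA ends, had 277 and 275 in siCtl and 494, 512 and 488 in siUpf1, a log2 fold change of 0.85 (SE 0.12, adjusted p = 2.75e-11). Tsen15, a subunit of the tRNA splicing endonuclease, had 404 and 409 in siCtl and 723, 698 and 712 in siUpf1, a log2 fold change of 0.81 (SE 0.10, adjusted p = 4.98e-14). These 3 genes had widely separated groups. Clp1 (-0.48) and Thg1l (-0.30) were lower, and Tsen34 (0.32) and Elac2 (0.27) were higher. The call of Thg1l was lost without siCtl replicate 3 (adjusted p = 0.154, range 0.000642 to 0.154).

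**Figure D5:**
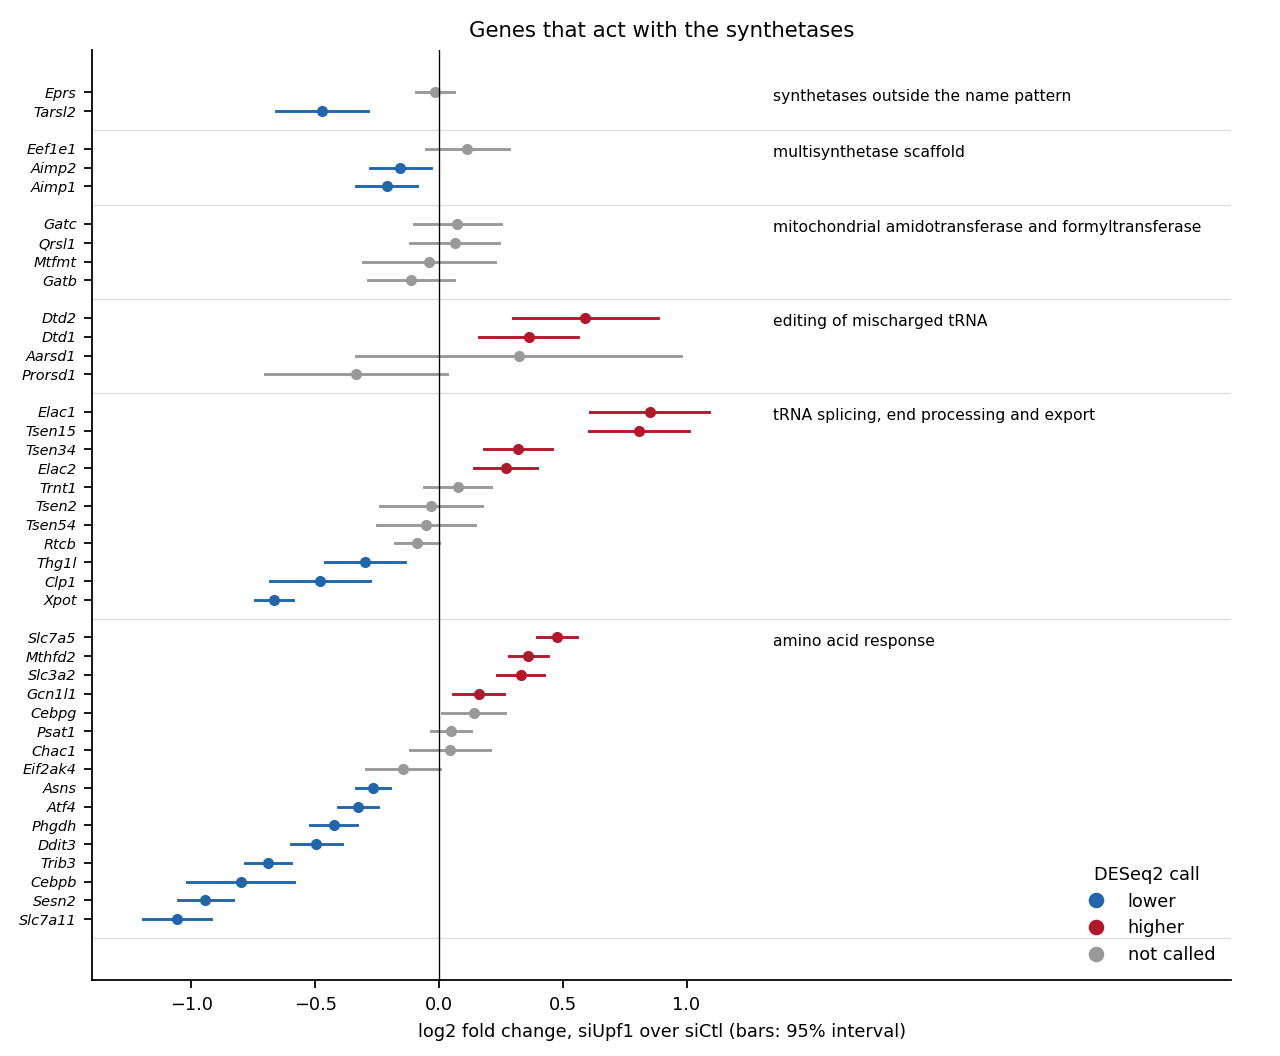
Log2 fold change of siUpf1 over siCtl, with its 95% interval, for the 40 partner genes in 6 lists, with the DESeq2 call as color. The amino acid response list runs from -1.06 for Slc7a11 to 0.48 for Slc7a5, and the amidotransferase and formyltransferase genes lie around 0.

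In the amino acid response, the kinase GCN2 (Eif2ak4) senses uncharged tRNA and the factor ATF4 then acts on its target genes. Of 16 genes of this response 8 were lower, 4 were higher and 4 were not called, against a background of 22.9% lower and 22.0% higher, with a median log2 fold change of -0.21. Atf4 had 31141 and 32049 normalised counts in siCtl and 25049.9, 26188 and 24338 in siUpf1, a log2 fold change of -0.33 (SE 0.041, adjusted p = 1.75e-14). Asns, the asparagine synthetase gene and a known ATF4 target, had 27496 and 27925 in siCtl and 23044, 23319 and 22742 in siUpf1, a log2 fold change of -0.27 (SE 0.036, adjusted p = 8.48e-13). Ddit3, which encodes the stress factor CHOP, had 3817 and 3792 in siCtl and 2727, 2754 and 2621 in siUpf1, a log2 fold change of -0.50 (SE 0.053, adjusted p = 2.39e-19). No siUpf1 library of these 3 genes reached the siCtl libraries. Exons of Ddit3 overlap those of Mars on the opposite strand. Of 2 rows with this symbol, the values are those of the row with the higher total count.

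The largest changes of the response were those of Slc7a11, Sesn2 and Cebpb. Slc7a11, the cystine transporter, had 2310.3 and 2257 normalised counts in siCtl and 1153, 1034 and 1098 in siUpf1, a log2 fold change of -1.06 (SE 0.07, adjusted p = 2.83e-49). Sesn2, which encodes a leucine sensor of the mTORC1 pathway, had 4582 and 4765 in siCtl and 2309.7, 2545 and 2438 in siUpf1, a log2 fold change of -0.94 (SE 0.057, adjusted p = 3.02e-60). Cebpb, a transcription factor that pairs with ATF4, had 660.4 and 628 in siCtl and 365, 378 and 368 in siUpf1, a log2 fold change of -0.80 (SE 0.11, adjusted p = 3.16e-12). All 3 had no overlap between groups. Trib3 (-0.69) and Phgdh (-0.43) were also lower, while Slc7a5 (0.48) and Slc3a2 (0.33), the subunits of the large neutral amino acid transporter, were higher, as were Mthfd2 (0.36) and Gcn1l1 (0.16), the activator of GCN2.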

How the data were processed

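The deposited table held unnormalised read counts by gene for 5 libraries, and no column was left without a sample. Per the labels the authors used STAR 2.7.0f, featureCounts of Subread 1.6.4 and build GRCm38.p6. The counts were neither normalised nor pooled, and per the study's methods reads were counted on the reverse strand. Genes were compared with DESeq2 1.42.0 (R 4.3.3; Wald test, median-of-ratios size factors, independent filtering, Benjamini-Hochberg adjustment over 15191 genes), as in the study's methods, and calls were made at an adjusted p under 0.05. Normalised counts are counts divided by the size factor. In simulated counts, with 200 genes changed and the same dispersion in every gene, DESeq2 recovered 78.7% of changes of 0.5 and 97.3% of changes of 1 on the log2 scale. The real counts need not follow that setting, so the share recovered in these data is not known. Alternatives were edgeR 4.0.16, other size factors, a minimum of 10 counts in 2 libraries, no filter, mitochondrially encoded genes left out, a replicate block, and each library left out. Exon lengths, 3′ UTRs and isoforms came from GENCODE M21, where 99.7% of the identifiers were found. 1 gene that the rule matched is not reported here and is left out of the counts of members. Members and lists were chosen with earlier results of these data known. Any member could be named, with values by library for the 10 cytosolic and 6 mitochondrial members with the largest fold changes, for Gars, Kars and Wars, and for pairs called in opposite directions. From the lists, the named genes were the 3 with the largest fold changes in each, those behind counts of 5 or fewer, and Atf4, Asns, Ddit3, Eprs, Tarsl2 and the scaffold genes. Lars2, Dars, Farsa and Farsb were added for values by library, and Trib3, Phgdh, Slc7a5, Slc3a2, Mthfd2 and Gcn1l1 named, after their values were seen.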

Additional observations from a re-analysis of the deposited data

How the results depend on the processing

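With 2 libraries against 3, the calls of Vars, Wars, Yars, Fars2, Cars2 and Sars2 were each lost when a single library was left out. The other called members kept theirs in those settings. Kars, Lars and Iars2 lost their calls only with the replicate block (adjusted p = 0.0844, 0.0837 and 0.0553 in DESeq2). Of 702 fold changes recomputed for 54 genes under the 13 alternatives, 651 kept their direction and their side of the threshold, 33 lost their call, 2 gained one, 16 changed sign in genes that were not called, and no called gene changed direction. Among the alternatives that keep all libraries, cytosolic members lower were 14 under each but the replicate block. Between libraries of the same replicate number, correlations of deviations from the group mean were -0.086 for replicate 1 and -0.075 for replicate 3. With 2 siCtl libraries both values rest on 1 siCtl difference, so they cannot show whether the replicates were paired. In the replicate block, siUpf1 replicate 2 has no siCtl partner and gives no contrast, which leaves 2 libraries against 2. With that block 10 cytosolic members were lower and 1 higher, and 3 mitochondrial members were lower and 1 higher. There 6 partner genes were higher, and the cytosolic median was -0.214. Over all genes the replicate block gave 1962 lower and 1957 higher, beside 3481 and 3341 without it. The cytosolic median was -0.170 with total-count size factors and -0.160 with Lars2, Gm42418 and Gm26917 left out of those totals, a setting added after seeing the data. The mitochondrial median was 0.0456 and 0.0557 in these settings, and the cause was not tested. With each library left out in turn, cytosolic members lower numbered 12 (without siCtl replicate 3) to 14 and higher 1 to 2, mitochondrial members lower 3 to 5 and higher 1 to 2, and the cytosolic median ran from -0.216 to -0.184. Median log2 fold changes of all genes moved by less than 0.1 under every scaling. PCR duplicates cannot be recognised in counts per gene, so counting error is a lower limit.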
